A study of Homo sapiens with 12 samples.

Results

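Pre-mRNA introns differ widely in length, and the splicing machinery meets a short intron differently from a long one. Splice sites are thought to be paired across the exon where introns are long and across the intron where introns are short, and in human genes short introns tend to be rich in G and C and to lie between GC-rich exons. An exon that sits between a pair of short introns is therefore a site where exon skipping and intron retention can both be read from the same short stretch of a gene. SFSWAP is a nuclear protein with SURP domains and an RS-rich region, related to the Drosophila splicing regulator suppressor-of-white-apricot.

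The exons described here were at least 31 and under 300 nt long with both flanking introns under 500 bp. A flanking intron is here the stretch between neighbouring exons of the event, and it can contain a further exon. They were chosen by their coordinates and by an average of 10 or more reads per library in a table, with 1 event kept per exon, and no inclusion level entered the choice. This gave 8550 exons, out of 106970 exons with the same read minimum in the whole series, in 2451 genes. Of the 8550 exons, 6798 passed the read minimum in cells with UPF1 present, 5817 in cells depleted of UPF1 and 4065 in both. A further 25695 exons of the same lengths had 1 intron under 500 bp and 63985 had none, and these served for comparison.

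RNA came from HEK293A-TOA cells, a line derived from human embryonic kidney cells, and every group received 1 μM of the O-GlcNAcase inhibitor Thiamet-G (TG) for 6 hr, so that cells without TG are not part of the comparisons. The 4 groups of 3 biological replicates included siSFSWAP (40 nM siRNA against SFSWAP) and siNT (non-target siRNA). The other groups, siSFSWAP/siUPF1 and siNT/siUPF1, had the same treatments in cells that also received 30 nM siRNA against UPF1. UPF1 is the helicase of nonsense-mediated decay. Knockdown was transient and left part of each target. Reads at SFSWAP exons were 12.9 ± 2.63 per 1000000 event reads in siSFSWAP and 31.96 ± 1.06 in siNT cells, and 14.7 ± 5.25 in siSFSWAP/siUPF1 and 35.7 ± 5.26 in siNT/siUPF1 cells (SD, n = 3 each). Those at UPF1 exons were 57.2 ± 16.1 in siNT/siUPF1 and 174 ± 31.5 in siNT cells, and 78.0 ± 22.6 in siSFSWAP/siUPF1 and 205 ± 17.3 in siSFSWAP cells. Reads at all skipped exon events ranged from 25938084 to 40637073 per library, and those at the 8550 exons from 2789825 to 5494171. The tables hold reads at splicing events and no gene levels, so markers of the cell line were not examined.

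The inclusion level runs from 0 to 1 and is the share of the form that contains the exon, after each form's reads are divided by its effective length. A positive difference stands for more inclusion after the knockdown. An exon counted as changed where the p of a 2-sided quasi-binomial test, adjusted by Benjamini-Hochberg, did not exceed 0.05. The test was fitted over all skipped exon events that had at least 10 inclusion and 10 skipping reads. Of the 8550 exons, 2846 could be tested for siSFSWAP against siNT and 2475 for siSFSWAP/siUPF1 against siNT/siUPF1. The others did not reach these minimums. Many of the exons are alternative ends of 1 exon and share reads. The 2846 exons form 1595 sets that do not overlap, and 4814 of the 8550 (56.3%) are annotated exons of GENCODE 44.

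The sequences of 9 of these exons show the range of base composition that goes with the results below. Exons are in capitals and introns in lower case, 5′ to 3′, from the GRCh38 reference. RPS6KB2 is shown with both of its complete introns and the others with 60 bases of the intron before and 40 bases of the intron after. The first 5 were more included after SFSWAP knockdown and the other 4 less.
COASY (chr17:42564923-42565087, plus strand): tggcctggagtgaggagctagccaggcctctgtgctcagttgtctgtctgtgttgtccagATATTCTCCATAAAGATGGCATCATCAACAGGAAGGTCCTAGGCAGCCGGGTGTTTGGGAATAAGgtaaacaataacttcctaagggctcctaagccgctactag
FASTK (chr7:151077061-151077296, minus strand): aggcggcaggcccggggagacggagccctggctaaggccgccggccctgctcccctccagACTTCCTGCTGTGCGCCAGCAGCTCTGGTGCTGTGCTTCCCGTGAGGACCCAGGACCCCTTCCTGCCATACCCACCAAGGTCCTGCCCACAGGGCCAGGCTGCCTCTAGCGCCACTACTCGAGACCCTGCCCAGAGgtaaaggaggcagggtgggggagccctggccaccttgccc
ADRM1 (chr20:62308308-62308510, plus strand): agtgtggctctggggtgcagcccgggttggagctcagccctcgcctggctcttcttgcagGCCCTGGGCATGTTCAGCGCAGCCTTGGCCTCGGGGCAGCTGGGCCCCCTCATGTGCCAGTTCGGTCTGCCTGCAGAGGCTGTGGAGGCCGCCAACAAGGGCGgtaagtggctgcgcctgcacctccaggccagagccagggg
FLNC (chr7:128849916-128850114, plus strand): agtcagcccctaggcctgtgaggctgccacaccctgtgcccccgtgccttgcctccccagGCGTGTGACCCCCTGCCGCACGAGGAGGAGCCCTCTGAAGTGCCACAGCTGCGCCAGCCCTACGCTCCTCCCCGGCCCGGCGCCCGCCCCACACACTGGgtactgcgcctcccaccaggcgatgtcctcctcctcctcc
RPS6KB2 (chr11:67433043-67433339, plus strand): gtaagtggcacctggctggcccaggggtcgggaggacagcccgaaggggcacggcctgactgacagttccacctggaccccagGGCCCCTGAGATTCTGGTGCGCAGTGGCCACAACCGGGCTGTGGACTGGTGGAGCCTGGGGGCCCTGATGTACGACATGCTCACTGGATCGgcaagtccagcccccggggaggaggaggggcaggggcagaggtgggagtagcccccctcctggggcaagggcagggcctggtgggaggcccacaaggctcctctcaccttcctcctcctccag
SNHG1 (chr11:62854848-62854998, minus strand): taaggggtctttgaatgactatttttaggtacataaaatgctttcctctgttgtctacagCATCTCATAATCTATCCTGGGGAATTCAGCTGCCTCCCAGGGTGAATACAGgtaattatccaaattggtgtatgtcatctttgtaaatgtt
PSMC1 (chr14:90263602-90263887, plus strand): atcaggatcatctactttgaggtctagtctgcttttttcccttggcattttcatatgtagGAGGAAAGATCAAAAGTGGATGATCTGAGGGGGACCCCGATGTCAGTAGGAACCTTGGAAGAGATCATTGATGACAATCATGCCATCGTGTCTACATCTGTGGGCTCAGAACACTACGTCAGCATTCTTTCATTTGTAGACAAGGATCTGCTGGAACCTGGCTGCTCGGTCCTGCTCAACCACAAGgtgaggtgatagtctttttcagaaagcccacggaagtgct
COPS6 (chr7:100090842-100090989, plus strand): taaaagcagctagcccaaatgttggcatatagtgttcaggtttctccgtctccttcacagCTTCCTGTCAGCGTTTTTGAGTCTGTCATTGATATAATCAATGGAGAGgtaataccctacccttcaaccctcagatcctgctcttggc
PSMD11 (chr17:32479791-32479926, plus strand): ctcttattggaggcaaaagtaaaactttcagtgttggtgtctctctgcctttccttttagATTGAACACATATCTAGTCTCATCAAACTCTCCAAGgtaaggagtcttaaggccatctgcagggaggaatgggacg

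The G+C content of the exon was 46.2% in COASY, 65.4% in FASTK, 69.9% in ADRM1, 74.7% in FLNC and 64.8% in RPS6KB2. It was 49.0% in SNHG1, 48.9% in PSMC1, 39.6% in COPS6 and 36.1% in PSMD11. The COASY exon, with 46.2%, lay between introns of 58.5% and 55.9%, whereas the SNHG1 exon, with 49.0%, lay between introns of 39.2% and 38.7%. The pyrimidine run before the 3′ splice site was not uniform either, with 12 pyrimidines in the 20 bases before the terminal AG in RPS6KB2 and 18 in PSMD11.

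SFSWAP knockdown raised the inclusion of exons between short introns more often than it lowered it. With siSFSWAP against siNT, 601 of the 2846 tested exons rose (21.1%) and 183 fell (6.43%), where 7.76% of all 33839 tested events rose and 4.21% fell. The rises lay in 276 genes and the falls in 74, with 4 genes in both. Counted once per set of overlapping exons, 331 rose and 81 fell. The median difference over the tested exons was 0.0232, and 68.8% of them lay above 0, against a median of 0.00424 and 58.1% over all events. Where a change of at least 0.2 in inclusion level was asked for as well, 255 exons rose and 38 fell, which is 8.96% and 1.34% of those tested, with 2.93% and 1.03% of all events. The groups of 3 libraries did not overlap at 654 of the 784 changed exons, and at 3510 of the 4052 changed events among all tested.

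Exons with fewer short introns changed less often. Of 7374 tested exons with 1 intron under 500 bp, 831 rose (11.3%) and 471 fell (6.39%), with a median difference of 0.00399. Of 16790 exons with no intron under 500 bp, 656 rose (3.91%) and 531 fell (3.16%), with a median of 0.00239. The share that fell was thus close in exons with both and with 1 short intron, while the share that rose was higher with both. The median number of reads was 148, 127 and 108 per library in the 3 classes, so that the exons between short introns were also the deepest, and the part of depth in the counts was not tested.

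**Figure D1:**
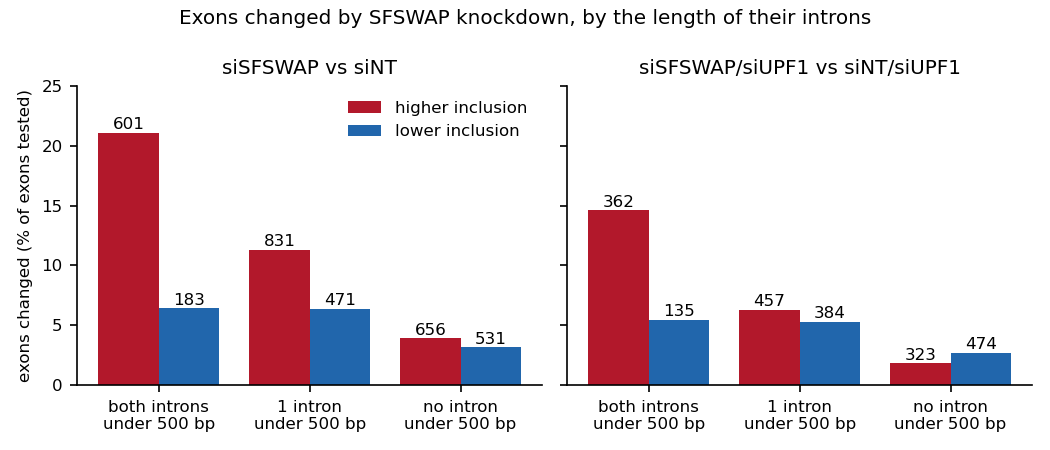
Share of tested exons (vertical axis, %) with higher (red) or lower (blue) inclusion, by the number of flanking introns under 500 bp, for each SFSWAP comparison, with the number of exons above each bar. Exons with both introns short had the tallest red bar in each panel, 21.1% and 14.6%.

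Among the exons between short introns, the length of the longer intron gave no steady order. Where the longer intron was under 100 bp, 10 of 76 exons rose and 5 fell. At 100 to under 200 bp 151 of 607 rose (24.9%) and 24 fell (3.95%), and at 200 to under 500 bp 440 of 2163 rose (20.3%) and 154 fell (7.12%). Just inside the limit, with a longer intron of 450 to under 500 bp, 74 of 392 tested exons rose and 35 fell. Just outside it, at 500 to under 550 bp beside an intron under 500 bp, 44 of 291 rose and 14 fell. At the ends of the length range, 4 of 20 exons of 290 to under 300 nt rose and 2 fell, against 1 and 1 of 18 at 300 to under 310 nt, and 5 of 37 exons of 31 to 35 nt rose and 3 fell, against 6 and 5 of 38 at 26 to 30 nt.

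The calls also varied with the level in siNT cells. Of 974 exons with a mean level of 0.5 to 0.9 in siNT, 321 rose (33.0%) and 15 fell (1.54%), where 14.6% of all events in that range rose and 2.92% fell. Of 1172 exons at 0.9 or over, 153 rose (13.1%) and 141 fell, against 4.29% and 7.39% of all events. Below 0.5, 127 of 700 rose (18.1%) and 27 fell (3.86%), against 6.64% and 2.05% of all events.

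The libraries of a control group were not alike at these exons. The median level over the 2846 exons was 0.940, 0.948 and 0.925 in the 3 siSFSWAP libraries in the order listed, and 0.852, 0.911 and 0.813 in the 3 siNT libraries. Each siSFSWAP median was higher than each siNT median, and the second-listed siNT library lay nearest to them. That library was the highest of its group at 454 of the 601 exons that rose (75.5%). Without it 640 exons rose. Without the first-listed siSFSWAP, the second-listed siSFSWAP or the third-listed siNT library, 362, 290 or 348 rose, and 115 fell without the third-listed siSFSWAP library. The spread of single exons was moderated strongly toward a common value. With each exon's own spread alone no exon was called, although 1298 of the 2846 had an unadjusted p under 0.05 in the quasi-binomial fit, and limma on the log2 odds called 168 rises and 82 falls.

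The 8 largest rises included exons of genes for membrane, metabolic and proteasome proteins. Exon 5 of COASY, which encodes the enzyme of the last steps of coenzyme A synthesis, had levels of 0.800, 0.854 and 0.767 in siSFSWAP and 0.152, 0.321 and 0.201 in siNT libraries. All siSFSWAP values lay far above all siNT values, with a log2 odds ratio of 3.88 (SE 0.33, quasi-binomial adjusted p = 2.45e-18). Exon 9 of ADRM1, the ubiquitin receptor of the proteasome, had 0.786, 0.833 and 0.799 in siSFSWAP and 0.298, 0.488 and 0.269 in siNT libraries. It had 905 reads per library, the most of these 8 exons (log2 odds ratio 3.03, SE 0.23, adjusted p = 4.51e-20). Exon 6 of REEP4, a protein that shapes the endoplasmic reticulum, averaged 0.836 ± 0.0494 in siSFSWAP and 0.240 ± 0.0564 in siNT cells (SD, n = 3), from 58.8 reads per library. Its difference of 0.597 was the largest by the rule.

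Further exons followed with differences of 0.455 to 0.535. Exon 8 of FASTK, a kinase-like protein of mitochondrial RNA metabolism, had 0.893, 0.868 and 0.943 in siSFSWAP and 0.258, 0.513 and 0.330 in siNT libraries. An exon of PREB, which activates the SAR1 GTPase of ER export, stood at 0.700 ± 0.00799 in siSFSWAP and 0.179 ± 0.0834 in siNT cells (SD, n = 3). Exon 10 of TMEM214, an ER membrane protein, stood at 0.941 ± 0.0509 in siSFSWAP and 0.434 ± 0.192 in siNT cells. For STK16, a membrane-associated kinase, the values were 0.926, 0.741 and 0.878 in siSFSWAP and 0.266, 0.365 and 0.409 in siNT libraries. Exon 31 of FLNC, which encodes the actin crosslinker filamin C, had 0.917, 0.910 and 0.811 in siSFSWAP and 0.420, 0.523 and 0.330 in siNT libraries. The groups did not overlap at any of these 5 exons, and adjusted p ranged from 4.39e-11 at FLNC to 6.21e-05 at STK16.

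The 8 largest falls included exons of non-coding RNA genes that host snoRNAs and of genes for mitochondrial and proteasome proteins. A 51 nt exon of SNHG1, a non-coding host of snoRNAs, had 0.204, 0.353 and 0.268 in siSFSWAP and 0.672, 0.735 and 0.821 in siNT libraries (log2 odds ratio -3.07, SE 0.25, adjusted p = 5.96e-18). A 63 nt exon of GAS5, a further snoRNA host, had 0.377, 0.357 and 0.375 in siSFSWAP and 0.876, 0.722 and 0.830 in siNT libraries. The siSFSWAP values of GAS5 were close together and all lay below the siNT values. A 94 nt exon listed under the read-through locus of RPL17 and C18orf32, whose first gene encodes a ribosomal protein, had 0.477, 0.514 and 0.399 in siSFSWAP and 0.976, 0.976 and 0.992 in siNT libraries.

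Prohibitin 2 (PHB2), a scaffold of the inner mitochondrial membrane, had a 50 nt exon at 0.338, 0.480 and 0.342 in siSFSWAP and 1, 0.952 and 0.962 in siNT libraries. A 65 nt exon of PSMD11, a subunit of the proteasome lid, stood at 0.642 ± 0.104 in siSFSWAP and 0.998 ± 0.00426 in siNT cells (SD, n = 3). In PSMC1, an ATPase of the proteasome base, a 47 nt exon had 0.673, 0.720 and 0.465 in siSFSWAP and 1, 0.981 and 0.958 in siNT libraries. A long exon of TAF1D, a factor of RNA polymerase I, averaged 0.634 ± 0.068 in siSFSWAP and 0.945 ± 0.0328 in siNT cells. In each of these the level was over 0.9 in every siNT library and every siSFSWAP library lay below every siNT library. The seventh of the 8 largest falls carries no gene symbol in the table and is not named. For 8 rises and 8 falls named by this rule each call held without any 1 of the 6 libraries, with adjusted p of at most 0.00594.

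**Figure D2:**
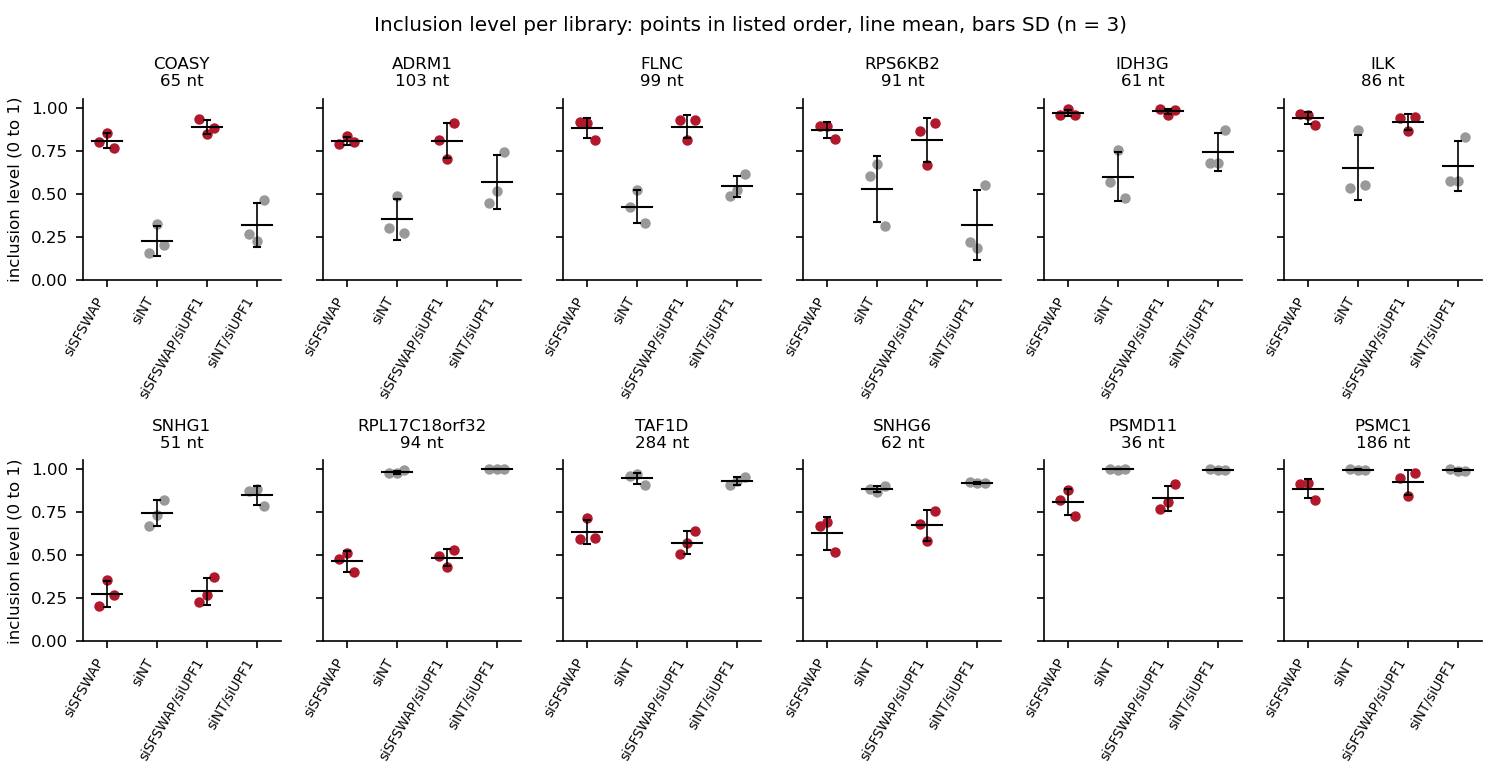
Inclusion level (vertical axis, 0 to 1) of 6 exons that rose (top) and 6 that fell (bottom) in each of the 12 libraries, with the mean (line) and SD (bars, n = 3), siSFSWAP groups in red and siNT groups in grey. COASY siSFSWAP libraries sit between 0.767 and 0.854 and siNT libraries between 0.152 and 0.321.

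With UPF1 depleted more of the exons between short introns rose than fell as well. Of 2475 tested exons, 362 rose with siSFSWAP/siUPF1 against siNT/siUPF1 (14.6%) and 135 fell (5.45%), where 4.05% of all 34006 events rose and 3.47% fell. A difference of at least 0.2 was reached by 179 of the rises and 32 of the falls, 7.23% and 1.29% of those tested, with 1.69% and 0.823% of all events. Counted once per set of overlapping exons, 204 rose and 63 fell. The median difference was 0.0201 with 67.8% of exons above 0, against 0.00113 and 52.3% over all events. Of 7283 exons with 1 short intron 457 rose (6.27%) and 384 fell (5.27%), and of 17649 with none 323 rose (1.83%) and 474 fell (2.69%).

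The libraries overlapped here. The median level over the 2475 exons was 0.951, 0.906 and 0.949 in the siSFSWAP/siUPF1 libraries and 0.838, 0.775 and 0.907 in the siNT/siUPF1 libraries, so that the third-listed siNT/siUPF1 library reached the second-listed siSFSWAP/siUPF1 library. It was the highest of its group at 303 of the 362 exons that rose (83.7%), and 488 exons rose without it. Leaving out the first-, second- or third-listed siSFSWAP/siUPF1 library left 219, 239 or 175 rises, and leaving out the second-listed siNT/siUPF1 library left 203, while 76 fell without the second-listed siSFSWAP/siUPF1 library. With limma on the log2 odds 0 exons rose and 2 fell, although 971 had an unadjusted p under 0.05 in the quasi-binomial fit.

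The largest difference by the rule lay in COASY. Its exon 4, which lies before the exon 5 shown above, had levels of 0.902, 0.751 and 0.808 in siSFSWAP/siUPF1 and 0.150, 0.142 and 0.258 in siNT/siUPF1 libraries (log2 odds ratio 4.31, SE 0.44, adjusted p = 1.19e-16). In the cells with UPF1 present the same exon had 0.693, 0.771 and 0.630 in siSFSWAP and 0.0738, 0.231 and 0.0637 in siNT libraries. A 271 nt form of an exon of CDK16, a cyclin-dependent kinase, had 0.913, 0.881 and 0.942 in siSFSWAP/siUPF1 and 0.259, 0.249 and 0.578 in siNT/siUPF1 libraries. A 67 nt form of exon 9 of RPS6KB2, a kinase of ribosomal protein S6, had 0.801, 0.567 and 0.872 in siSFSWAP/siUPF1 and 0.182, 0.108 and 0.410 in siNT/siUPF1 libraries. All 3 exons had groups that did not overlap.

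Other large rises with UPF1 depleted included genes of metabolism and of protein turnover. ACAA1, a peroxisomal thiolase of fatty acid oxidation, had a 191 nt exon at 0.985 ± 0.0253 in siSFSWAP/siUPF1 and 0.476 ± 0.150 in siNT/siUPF1 cells (SD, n = 3). MARS, the cytosolic methionyl-tRNA synthetase, had a 51 nt exon at 0.904, 0.971 and 1 in siSFSWAP/siUPF1 and 0.452, 0.326 and 0.592 in siNT/siUPF1 libraries. REEP4 exon 6 stood at 0.801 ± 0.138 in siSFSWAP/siUPF1 and 0.318 ± 0.189 in siNT/siUPF1 cells. Exon 9 of UBXN6, a cofactor of the p97 ATPase, lay between introns of 86 and 85 bp and had 0.769, 0.781 and 0.946 in siSFSWAP/siUPF1 and 0.195, 0.413 and 0.594 in siNT/siUPF1 libraries. It lost its call in 1 of the 6 fits without a library (adjusted p = 0.056). Exon 2 of TRIP6, a LIM-domain protein of focal adhesions, had 0.875, 0.810 and 0.871 in siSFSWAP/siUPF1 and 0.420, 0.275 and 0.583 in siNT/siUPF1 libraries (adjusted p = 2.52e-12).

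The largest falls with UPF1 depleted again included snoRNA hosts. The 51 nt exon of SNHG1 had 0.226, 0.265 and 0.375 in siSFSWAP/siUPF1 and 0.872, 0.886 and 0.784 in siNT/siUPF1 libraries (log2 odds ratio -4.00, SE 0.23, adjusted p = 2.08e-27). A 52 nt exon of SNHG5 had 0.614, 0.540 and 0.724 in siSFSWAP/siUPF1 and 0.928, 0.894 and 0.880 in siNT/siUPF1 libraries. A 62 nt exon of SNHG6 averaged 0.672 ± 0.0878 in siSFSWAP/siUPF1 and 0.919 ± 0.00367 in siNT/siUPF1 cells (SD, n = 3). The exon of the RPL17 and C18orf32 locus had 0.496, 0.433 and 0.527 in siSFSWAP/siUPF1 and 1 in each siNT/siUPF1 library. The TAF1D exon had 0.507, 0.573 and 0.639 in siSFSWAP/siUPF1 and 0.906, 0.933 and 0.954 in siNT/siUPF1 libraries. A 67 nt exon of SRRM2, a scaffold of nuclear speckles, had 0.226, 0.312 and 0.574 in siSFSWAP/siUPF1 and 0.652, 0.766 and 0.721 in siNT/siUPF1 libraries. The 47 nt exon of PSMC1, at 0.690 ± 0.182 in siSFSWAP/siUPF1 and 0.960 ± 0.0351 in siNT/siUPF1 cells, lost its call without 1 library (adjusted p = 0.067). The eighth fall carries no gene symbol in the table.

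At 1782 exons both comparisons could be made, and these comparisons share no library. Of them 552 changed with UPF1 present and 402 with UPF1 depleted, and 277 changed in both, which is 50.2% of the 552 and 68.9% of the 402. All 277 changed in the same direction, 198 upward and 79 downward. The same counts were not made for exons with 1 or no short intron. Whether such agreement is particular to these exons was not tested. Of the 436 exons that rose with UPF1 present, 416 had a difference above 0 with UPF1 depleted, where their median difference was 0.108 against 0.163 with UPF1 present. All 116 exons that fell with UPF1 present had a difference under 0 with UPF1 depleted, with medians of -0.0366 and -0.0553. Across the 1782 exons, which share reads where they overlap, the differences had a Pearson r of 0.68 and a Spearman rho of 0.69, given as a description.

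**Figure D3:**
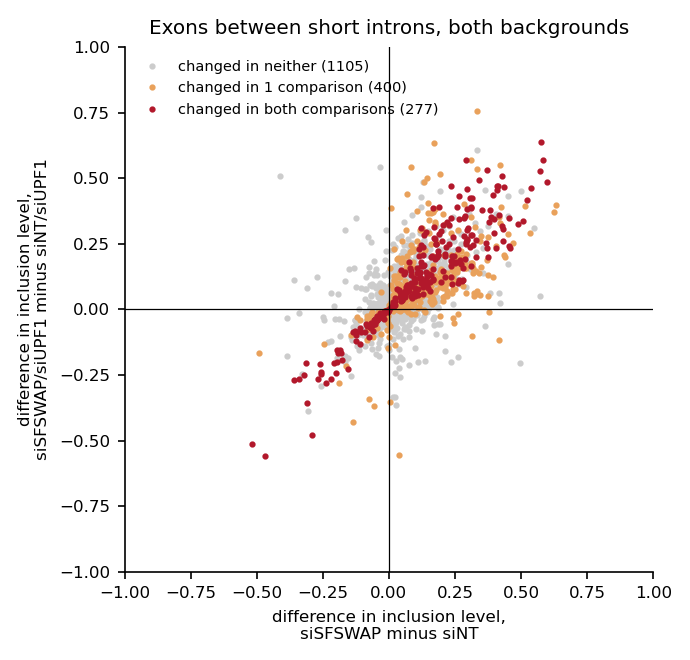
Difference in inclusion level of 1782 exons between short introns, with UPF1 present (horizontal axis) and with UPF1 depleted (vertical axis), coloured by whether the exon changed in neither, 1 or both comparisons. All 277 exons changed in both (dark red) lie above 0 on both axes or below 0 on both.

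A difference of the SFSWAP effect between the UPF1 backgrounds was not detected. Only events listed with the same coordinates in both UPF1 backgrounds entered here and in the UPF1 comparisons below. They include 4184 of the 8550 exons. In a fit of all 12 libraries 0 of 2950 exons were called, where 0.00771% of all 38928 events were, and 98 of the 2950 (3.32%) had an unadjusted p under 0.05. With limma on the log2 odds 0 were called as well, with 159 and 170 at an unadjusted p under 0.05 for pseudocounts of 0.5 and 1. A missed threshold does not show that the effects were equal, and 3 exons were called without the third-listed siSFSWAP/siUPF1 or the second-listed siNT library.

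UPF1 knockdown by itself changed few of the exons that could be tested. Exons listed in only 1 UPF1 background could not enter. With siNT/siUPF1 against siNT, which shares the siNT libraries with the first comparison, 25 of 2234 exons rose and 16 fell (1.84% changed), where 1.17% of all 28261 events changed. The count was 22 without the first-listed siNT library and 88 without the third-listed siNT/siUPF1 library, and limma called 0, with 301 exons at an unadjusted p under 0.05 in the quasi-binomial fit. A 60 nt exon of SRRM2 had 0.978, 0.979 and 0.983 in siNT/siUPF1 and 0.874, 0.948 and 0.864 in siNT libraries (adjusted p = 5.06e-06). The same exon had 0.881, 0.867 and 0.954 in siSFSWAP/siUPF1 and 0.859, 0.930 and 0.880 in siSFSWAP libraries. The 3 siNT/siUPF1 values lay above all 9 others at this exon. Exon 4 of TMEM106C, a membrane protein, had 0.908, 0.817 and 0.899 in siNT/siUPF1 and 0.997, 0.976 and 0.975 in siNT libraries. ADRM1 exon 9 had 0.446, 0.513 and 0.742 in siNT/siUPF1 and 0.298, 0.488 and 0.269 in siNT libraries, groups that touch. A 70 nt exon of HDGF, a nuclear growth factor, was at 0.0192 ± 0.00405 in siNT/siUPF1 and 0.00427 ± 0.00214 in siNT cells (SD, n = 3).

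In SFSWAP-depleted cells UPF1 knockdown changed 2 of 1783 exons (siSFSWAP/siUPF1 against siSFSWAP), where 0.0816% of all 25748 events changed, and 109 had an unadjusted p under 0.05. Both are overlapping forms of an exon of HNRNPA1, an abundant splicing repressor. The 93 nt form, exon 6, was at 0.997, 0.999 and 1 in siSFSWAP/siUPF1 and 1 in each siSFSWAP library, a difference of -0.00148 in inclusion level. Leaving out the first-listed siSFSWAP/siUPF1 library left 0 exons, leaving out the second-listed siSFSWAP/siUPF1 library left 6 and leaving out the second-listed siSFSWAP library left 1. With limma 0 exons were called.

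The 17 lists of genes used here were drawn up by symbol patterns with earlier results known. Beside each stand counts over all tested skipped exon events of the whole list, at any exon and intron length. Those are counts of events, of which 1 exon can give several. Overlapping forms of 1 exon between short introns count separately within a list, so several calls can come from 1 gene. For comparison, of all tested exons between short introns 21.1% rose and 6.43% fell with siSFSWAP against siNT, and 14.6% and 5.45% with UPF1 depleted. The counts are a description, and no list was tested against the others. Among kinases and phosphatases, 32 of 74 tested exons between short introns rose and 0 fell with siSFSWAP against siNT, in 16 genes, and the median difference was 0.0657. Over all tested events of the list 113 of 910 rose and 26 fell, and 70 and 20 of 959 with UPF1 depleted. Exon 7 of ILK, named integrin-linked kinase, had 0.964, 0.958 and 0.901 in siSFSWAP and 0.532, 0.871 and 0.549 in siNT libraries. A 183 nt exon of CDK4, a kinase of the G1 phase, had 0.989, 0.987 and 0.963 in siSFSWAP and 0.858, 0.869 and 0.770 in siNT libraries. Exon 9 of CDK16 stood at 0.974 ± 0.00477 in siSFSWAP and 0.808 ± 0.103 in siNT cells (SD, n = 3). With UPF1 depleted 25 of 80 exons of the list rose and 0 fell, among them exon 6 of AURKB, the mitotic kinase of the chromosomal passenger complex, at 0.996, 0.952 and 0.976 in siSFSWAP/siUPF1 and 0.890, 0.647 and 0.816 in siNT/siUPF1 libraries.

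Exons of metabolic enzymes had rises and 0 falls, although most were not called. With UPF1 present 23 of 61 exons rose (37.7%) and 0 fell, in 11 genes, with a median difference of 0.0903, and with UPF1 depleted 18 of 58 rose and 0 fell, with a median of 0.102. Over the whole list there were 70 rises and 7 falls of 392, and 49 and 6 of 379 with UPF1 depleted. Exon 12 of IDH3G, a subunit of mitochondrial isocitrate dehydrogenase, had 0.956, 0.989 and 0.958 in siSFSWAP and 0.564, 0.752 and 0.474 in siNT libraries (adjusted p = 2.92e-13). Exon 10 of FDPS, a synthase of the mevalonate pathway, had 0.950, 0.937 and 0.932 in siSFSWAP and 0.706, 0.788 and 0.695 in siNT libraries. Exon 3 of SHMT2, which feeds mitochondrial 1-carbon metabolism, was at 0.938 ± 0.0216 in siSFSWAP/siUPF1 and 0.714 ± 0.126 in siNT/siUPF1 cells (SD, n = 3).

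DNA repair and replication genes had 12 of 75 exons that rose (16.0%) and 0 that fell with UPF1 present, and 18 of 63 (28.6%) and 0 with UPF1 depleted. The rises lay in 3 genes with UPF1 present and in 6 with UPF1 depleted. Some are overlapping forms of 1 exon that share reads, as in POLD2. The first share is below that of all exons between short introns. At any intron length the list had 42 rises and 13 falls of 601, and 43 and 12 of 673 with UPF1 depleted. Exon 8 of POLD2, a subunit of DNA polymerase delta, had 0.976, 0.994 and 0.957 in siSFSWAP and 0.884, 0.962 and 0.763 in siNT libraries, groups that touch, and lost its call without 1 library (adjusted p = 0.070). RECQL4, a DNA helicase, had exon 6 at 1, 0.991 and 0.959 in siSFSWAP and 0.902, 0.918 and 0.770 in siNT libraries, and kept its call in 3 of 6 such fits. TELO2, which stabilizes PI3K-related kinases, kept the call of exon 14 in 3 of 6 as well. With UPF1 depleted, exon 6 of FANCG, of the Fanconi anemia core complex, had 1 in each siSFSWAP/siUPF1 library and 0.240, 0.308 and 0.90 in siNT/siUPF1 libraries, from 40.7 reads per library.

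Among small GTPases and genes of vesicle traffic 20 of 90 exons rose (22.2%) and 5 fell with UPF1 present, and 9 and 2 of 73 with UPF1 depleted. The rises were near the share of all exons between short introns with UPF1 present, and the whole list had 67 rises and 39 falls of 931, and 35 and 18 of 1003 with UPF1 depleted. Exon 3 of RAB24, a GTPase tied to autophagy, had 1, 1 and 0.948 in siSFSWAP and 0.479, 0.766 and 0.584 in siNT libraries. Exon 26 of AP3D1, of the AP-3 coat, was at 0.997 ± 0.00497 in siSFSWAP and 0.950 ± 0.0194 in siNT cells (SD, n = 3). A 222 nt exon of VPS51, of the GARP tethering complex, had 1, 1 and 0.989 in siSFSWAP/siUPF1 and 0.719, 0.503 and 0.879 in siNT/siUPF1 libraries. The list's name pattern also took in COPS6, a subunit of the COP9 signalosome, whose exon 6 fell to 0.789, 0.859 and 0.723 in siSFSWAP, against 0.918, 0.940 and 0.882 in siNT libraries.

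Solute carriers and transporters form a list that also holds TMEM genes with no transport role assigned here. It had 21 of 81 exons that rose and 6 that fell, and 15 and 1 of 69 with UPF1 depleted. All events of the list had 64 rises and 24 falls of 753, and 36 and 25 of 791 with UPF1 depleted. TMEM8A exon 8 was at 1 in each siSFSWAP library and at 0.812, 0.902 and 0.828 in siNT libraries. SLC25A1, the mitochondrial citrate carrier, had a 95 nt exon at 0.980 ± 0.0123 in siSFSWAP/siUPF1 and 0.904 ± 0.0483 in siNT/siUPF1 cells (SD, n = 3), a call that held in 3 of 6 fits without a library. Ubiquitin genes had 12 of 58 exons that rose and 4 that fell, and 10 and 3 of 59 with UPF1 depleted, against 64 rises and 32 falls of 914, and 34 and 23 of 940 with UPF1 depleted at any intron length. Exon 25 of UBA1, the ubiquitin-activating enzyme, had 2524 reads per library and was at 0.997 ± 0.000443 in siSFSWAP and 0.966 ± 0.0187 in siNT cells. A 121 nt exon of STUB1, a ubiquitin ligase of misfolded proteins, had 0.969, 0.989 and 0.980 in siSFSWAP and 0.949, 0.961 and 0.844 in siNT libraries, and kept its call in 4 of 6 fits without a library.

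Tubulin, actin and motor genes had 11 of 45 exons that rose (24.4%) and 7 that fell, and 7 and 2 of 35 with UPF1 depleted. The share of rises was near that of all exons between short introns with UPF1 present, and at any intron length there were 36 rises and 32 falls of 415, and 21 and 18 of 404 with UPF1 depleted. An 86 nt form of exon 40 of FLNA, filamin A, had 0.956, 0.950 and 0.872 in siSFSWAP and 0.565, 0.805 and 0.547 in siNT libraries, and the 123 nt exon 40 had 0.987, 0.965 and 0.970 in siSFSWAP/siUPF1 and 0.802, 0.684 and 0.857 in siNT/siUPF1 libraries. Exon 3 of CFL1, the actin-severing cofilin, fell by a small amount, to 0.994 ± 0.00192 in siSFSWAP, against 1.00 ± 0.000313 in siNT cells (SD, n = 3, 6273 reads per library). Zinc finger genes had 11 of 41 rises and 1 fall, and 2 and 1 of 33 with UPF1 depleted, and over the whole list 47 rises and 10 falls of 907, and 12 and 10 of 853 with UPF1 depleted. Exon 5 of ZNF384, a transcription factor, had 0.312, 0.412 and 0.278 in siSFSWAP and 0.0745, 0.310 and 0.0618 in siNT libraries, groups that touch, and kept its call in 4 of 6 fits without a library. Autophagy genes had 2 of 19 rises, in ATG2A and WDR45, each called in 4 of 6 fits without a library, and 0 falls, and 0 of 19 calls with UPF1 depleted. The whole autophagy list had 18 rises and 2 falls of 145, and 11 and 1 of 151 with UPF1 depleted.

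Other lists had rises and falls. Splicing factors and RNA-binding proteins had 13 rises and 18 falls among 167 exons, with a median difference of -0.000681, and 16 and 12 of 136 with UPF1 depleted. The rises were 7.78% and the falls 10.8% of the 167. All events of the list had 115 rises and 115 falls of 1358, and 70 and 113 of 1220 with UPF1 depleted. Exon 4 of SRRT, which links the cap-binding complex to RNA processing, had 0.911, 0.882 and 0.854 in siSFSWAP and 0.513, 0.726 and 0.458 in siNT libraries. A 75 nt form of exon 3 of RBM8A, of the exon junction complex, fell to 0.940, 0.966 and 0.929 in siSFSWAP, against 0.997, 0.991 and 0.995 in siNT libraries. A 195 nt exon of SRSF4, an SR protein, was at 0.0305 ± 0.0124 in siSFSWAP and 0.00160 ± 0.00143 in siNT cells (SD, n = 3). With UPF1 depleted a 131 nt exon of DDX23, a helicase of the tri-snRNP, had 0.971, 0.991 and 0.957 in siSFSWAP/siUPF1 and 0.781, 0.690 and 0.904 in siNT/siUPF1 libraries. Overlapping forms of this RBM8A exon gave the 2 calls of the nonsense-mediated decay list in each comparison, of 9 and 4 exons tested, while that list had 6 rises and 4 falls of 113, and 2 and 8 of 86 with UPF1 depleted at any intron length.

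Chromatin and transcription genes had 20 rises and 14 falls of 134 exons, and 12 and 19 of 96 with UPF1 depleted, where the pattern also took in HMGCS1, an enzyme of the mevalonate pathway, among the falls. The whole list had 99 rises and 57 falls of 1149, and 55 and 56 of 1122 with UPF1 depleted. Exon 5 of TAF6, of TFIID, had 0.887, 0.933 and 0.929 in siSFSWAP and 0.445, 0.701 and 0.393 in siNT libraries. Exon 33 of CHD3, a remodeler of the NuRD complex, had 0.569, 0.581 and 0.509 in siSFSWAP and 0.157, 0.383 and 0.176 in siNT libraries, and with UPF1 depleted it was at 0.530 ± 0.050 in siSFSWAP/siUPF1 and 0.248 ± 0.0705 in siNT/siUPF1 cells (SD, n = 3). A 53 nt exon of HMGN1, a nucleosome-binding protein, had 0.894, 0.966 and 0.912 in siSFSWAP and 1 in each siNT library. Exon 13 of HDAC1, a histone deacetylase, was at 0.940 ± 0.0249 in siSFSWAP/siUPF1 and 0.996 ± 0.00366 in siNT/siUPF1 cells.

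Proteasome genes had 2 rises and 8 falls of 43 exons, and 3 and 6 of 42 with UPF1 depleted. The falls lay in PSMA4, PSMC1 and PSMD11, and with UPF1 depleted in PSMC1 and PSMD11. Those of PSMC1 include overlapping forms of 1 exon that share reads. The whole list had 7 rises and 15 falls of 174, and 7 and 7 of 200 with UPF1 depleted. Exon 5 of PSMC1 had 0.914, 0.920 and 0.821 in siSFSWAP and 1, 0.997 and 0.992 in siNT libraries, and exon 11 of PSMD11 had 0.769, 0.807 and 0.912 in siSFSWAP/siUPF1 and 0.998, 0.992 and 0.997 in siNT/siUPF1 libraries. Respiratory chain genes had 4 rises and 11 falls of 20 exons, in 3 genes. They are NDUFV1 with rises, and ATP5B and UQCRB with falls, the last at low levels of 0.0242, 0.0119 and 0.0166 in siSFSWAP and 0.0450, 0.0504 and 0.0537 in siNT libraries. With UPF1 depleted 5 rose and 8 fell of 21 exons, in the same 3 genes. At any intron length the respiratory list had 32 rises and 29 falls of 310, and 21 and 23 of 298 with UPF1 depleted.

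Cytosolic ribosomal protein genes had 15 rises and 15 falls of 101 exons, and 8 and 11 of 69 with UPF1 depleted, but the name pattern also took in RPS6KB2, which is a kinase. All events of this list had 93 rises and 57 falls of 647, and 47 and 30 of 483 with UPF1 depleted. RPS6KB2 exon 9 had 0.895, 0.895 and 0.819 in siSFSWAP and 0.604, 0.671 and 0.311 in siNT libraries, and with UPF1 depleted 0.863, 0.667 and 0.910 in siSFSWAP/siUPF1 and 0.217, 0.186 and 0.552 in siNT/siUPF1 libraries. A 97 nt exon of RPS2 was called lower at 0, 0 and 0.0206 in siSFSWAP and 0.974, 0 and 0.963 in siNT libraries, so that the second-listed siNT library lay with the siSFSWAP libraries. Its call was lost without 1 library (adjusted p = 0.086). Exon 3 of RPS20, with 14228 reads per library, was at 0.995 ± 0.00125 in siSFSWAP/siUPF1 and 0.999 ± 0.000163 in siNT/siUPF1 cells (SD, n = 3). Mitochondrial ribosomal protein genes had 3 rises and 1 fall of 19 exons, and 0 and 0 of 16 with UPF1 depleted, where the whole list had 15 rises and 8 falls of 216, and 16 and 7 of 213 with UPF1 depleted. Exon 2 of MRPL53 was at 0.983 ± 0.0102 in siSFSWAP and 0.821 ± 0.060 in siNT cells. Translation factors and tRNA synthetases had 7 rises and 9 falls of 65 exons, and 8 and 2 of 47 with UPF1 depleted, against 55 rises and 25 falls of 563, and 35 and 19 of 531 with UPF1 depleted over the whole list. Exon 9 of QARS, the glutaminyl-tRNA synthetase, had 0.956, 0.956 and 0.924 in siSFSWAP and 0.792, 0.909 and 0.634 in siNT libraries, with a call lost without 1 library (adjusted p = 0.085), and exon 14 of MARS was at 0.986 ± 0.0167 in siSFSWAP/siUPF1 and 0.741 ± 0.121 in siNT/siUPF1 cells. An exon of EEF2, the translocation factor, had a difference of -0.00194 from 27531 reads per library.

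Some genes held several changed exons. Counting exons that do not overlap, 4 of 4 tested exons of RPS6KB2 rose with siSFSWAP against siNT, 4 of 6 in INPPL1, which encodes the inositol phosphatase SHIP2, 3 of 4 in CHTF18, a subunit of a PCNA loader, and 3 of 4 in ZNF598, a ubiquitin ligase of stalled ribosomes, while 4 of 5 in GAS5 fell. With UPF1 depleted 3 of 4 rose in RPS6KB2 and 3 of 5 in FANCG, and 3 of 3 in SNHG1 fell. Exons of 1 gene share its RNA and are not separate replicates.

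The exons that rose and fell differed in base composition, which the choice of exons did not use. They also differed in level and depth. With UPF1 present the median siNT level was 0.753 in rises, 0.993 in falls and 0.856 in exons not called. Median reads per library were 181, 501 and 122 in that order. The part of level and depth in the differences of base composition was not tested. With siSFSWAP against siNT, the median G+C content was 59.2% in the 601 exons that rose, 44.7% in the 183 that fell and 56.6% in the 2062 not called. The intron before the exon had medians of 61.3%, 38.4% and 57.6%, and the intron after it 60.6%, 39.7% and 55.8%, in that order of rises, falls and no call. With UPF1 depleted the exon medians were 57.8% in 362 rises, 43.9% in 135 falls and 56.3% in 1978 exons not called. With siSFSWAP against siNT, median exon length was 111 nt in rises, 90 nt in falls and 116 nt in exons not called, and the share with a length divisible by 3 was 37.6%, 37.2% and 37.3%. With UPF1 depleted the medians were 104, 81 and 114 nt and the shares 31.5%, 37.0% and 36.6%, in the same order. Both introns had GT and AG ends at 94.2% of the exons that rose and 85.8% of those that fell with siSFSWAP against siNT, and at 94.8% and 91.9% with UPF1 depleted.

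Divided by exon G+C content, 65 of 658 exons under 50% rose (9.88%) and 121 fell (18.4%). From 50 to 57% 166 of 796 rose and 41 fell, from 57 to 62% 152 of 656 rose and 9 fell, and at 62% or over 218 of 736 rose (29.6%) and 12 fell (1.63%). Exons with 1 or no short intron showed the same order at a lower height, with 26.4% of 1043 and 11.5% of 1036 exons rising at 62% or over, and 3.84% of 3229 and 2.32% of 10018 under 50%. Within each of the 4 ranges the share that rose was highest in the exons with both introns short. Read depth went the other way, with a median of 291 reads per library under 50% and 100.1 at 62% or over. Sequencing bias by base composition was not tested.

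**Figure D4:**
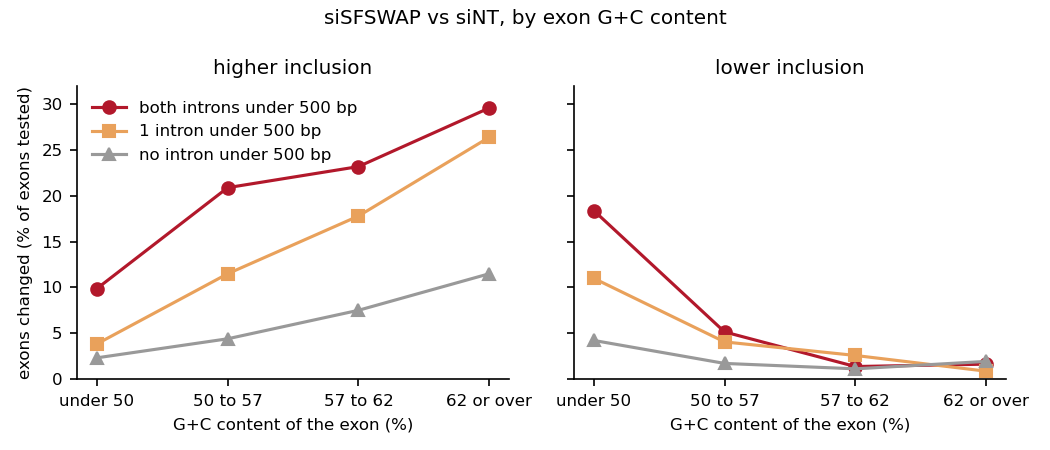
Share of tested exons (vertical axis, %) that rose (left) or fell (right) with siSFSWAP against siNT, by the G+C content of the exon (horizontal axis, %) and the number of flanking introns under 500 bp. At 62% or over, 29.6% of exons between short introns rose and 1.63% fell, and under 50%, 9.88% rose and 18.4% fell.

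Exons beside an intron that holds a snoRNA gene in GENCODE 44, a grouping chosen after their values were seen, fell more often than the others. In such introns the snoRNA is cut from the spliced lariat, and several host genes encode no protein. Of 145 such exons with UPF1 present, 94 were tested, of which 7 rose and 34 fell (36.2%), against 594 rises and 149 falls (5.41%) among 2752 exons without a snoRNA in either intron. With UPF1 depleted 3 of 58 rose and 20 fell (34.5%), against 359 rises and 115 falls (4.76%) among 2417 without a snoRNA. The 94 exons form 26 sets without overlap under 21 gene symbols, and the 34 falls lay in 10 of these sets. With UPF1 depleted the falls lay in 7 of 25 sets. The falls with UPF1 present carry 9 symbols, where RPL17 and its read-through locus count separately. Among the symbols are SNHG1, SNHG5, SNHG6, RPL17, RPS20, ATP5B and RPS2. In the SNHG genes and GAS5, which were chosen after their values were seen, 25 of 38 tested exons fell and 0 rose with UPF1 present, and 20 of 30 fell and 0 rose with UPF1 depleted. Counting exons that do not overlap, 8 of 15 and 7 of 11 fell. No exon of SNHG8 or SNHG12 was called. The 2 tested exons of SNHG8 had differences of 0.171 and 0.273 with UPF1 present, and the 1 tested with UPF1 depleted had -0.0594. In GAS5 9 of 14 exons fell, with differences from -0.498 to -0.00769. GENCODE 44 lists no snoRNA gene within GAS5, so its exons stand among those without. The median exon G+C content of the 94 exons was 51.2%, against 56.9% in the exons without a snoRNA, and the part of base composition was not tested.

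Retention of the introns beside these exons could be read from the retained intron events of the same libraries. With siSFSWAP against siNT, 306 of 1872 introns directly beside the exons were less retained (16.3%) and 21 more (1.12%), where 9.1% of all 5845 retained introns were lower and 1.33% higher. With UPF1 depleted 64 of 1517 were lower (4.22%) and 14 higher (0.923%), where 2.59% of all 5105 were lower and 0.979% higher. The median difference in retention level was -0.0151 with UPF1 present, against -0.00617 over all retained introns, and -0.00376 with UPF1 depleted, against -0.000912. These calls rest on the shared dispersion, since limma on the log2 odds called 0 in either comparison. Without the first-listed siSFSWAP, the first-listed siNT or the third-listed siNT library 191, 197 and 194 introns were lower, and with UPF1 depleted the count ran from 32 without the first-listed siSFSWAP/siUPF1 to 127 without the third-listed siNT/siUPF1 library, with 38 and 34 without the second- and third-listed siSFSWAP/siUPF1 and 41 without the second-listed siNT/siUPF1 library.

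Exon and intron could be paired in 1612 cases with UPF1 present, from 1409 exons. An intron beside several overlapping exon forms entered once per form, so the counts are of pairs and not of distinct introns. In 389 pairs the exon rose, and the intron beside it was less retained in 110 and more retained in 4. In 114 the exon fell, and the intron was less retained in 0 and more in 8. The median difference in retention was -0.0330 beside exons that rose, 0.00407 beside exons that fell and -0.0204 beside exons not called. Of 275 pairs with a risen exon in UPF1-depleted cells, 32 had a less retained and 0 a more retained intron, and of 78 with a fallen exon 0 and 16. Across the 1612 pairs the differences had a Spearman rho of -0.40 and a Pearson r of -0.26, as a description, since exon and intron share junction reads and reads of unspliced RNA also cover the exon.

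**Figure D5:**
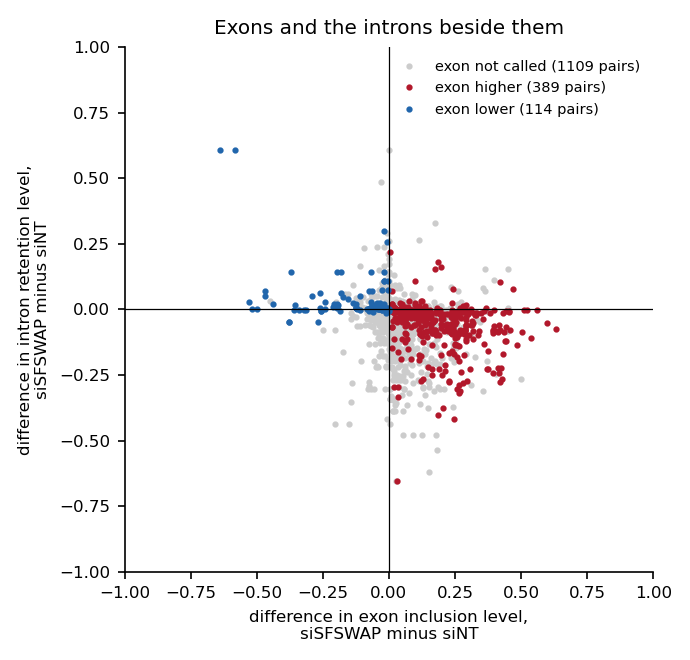
Difference in retention level of an intron (vertical axis) against the difference in inclusion level of the exon beside it (horizontal axis), siSFSWAP minus siNT, for 1612 pairs, with pairs whose exon rose in red and whose exon fell in blue. In the 389 pairs with a risen exon the median difference in retention is -0.0330.

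Single genes showed several patterns. In NOP56, a core protein of box C/D snoRNPs, the 154 bp intron before a 121 nt exon had retention levels of 0.535, 0.549 and 0.629 in siSFSWAP and 0.901, 0.866 and 0.840 in siNT libraries, while the exon was at 0.0262 ± 0.00513 in siSFSWAP and 0.00619 ± 0.00197 in siNT cells (SD, n = 3). The intron of 87 bp before a 58 nt exon of IFRD2, a translational regulator, had 0.0583, 0.155 and 0.0953 in siSFSWAP and 0.437, 0.347 and 0.620 in siNT libraries, while its exon was not called (adjusted p = 0.518). PTMS, which encodes parathymosin, went the other way, with a 175 bp intron at 1 in each siSFSWAP library and 1, 0.843 and 0.620 in siNT libraries, groups that touch. Introns of RPS2 and RPL10, ribosomal protein genes, were called at low levels, 0.0481 ± 0.00527 in siSFSWAP and 0.0715 ± 0.00873 in siNT cells for RPS2.

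With UPF1 depleted the NOP56 intron had 0.599, 0.554 and 0.573 in siSFSWAP/siUPF1 and 0.909, 0.825 and 0.785 in siNT/siUPF1 libraries. The 81 bp intron before exon 3 of TUBB4B, a beta-tubulin, had 0.0575, 0.0812 and 0.0438 in siSFSWAP/siUPF1 and 0.266, 0.322 and 0.127 in siNT/siUPF1 libraries. Introns of SNHG1 and GAS5 were more retained. The 194 bp intron before the 51 nt SNHG1 exon had 0.357, 0.283 and 0.309 in siSFSWAP/siUPF1 and 0.106, 0.0822 and 0.209 in siNT/siUPF1 libraries, and the exon of the same pair is the one that had a difference of -0.558 in inclusion level. The SNHG1 intron thus rose where its exon fell, and no siSFSWAP/siUPF1 library overlapped a siNT/siUPF1 library. The other introns named by the rule, in IFRD2 and FLNA, were less retained, beside exons that were not called. The IFRD2 intron, of 93 bp and after an 85 nt exon, is not the one of 87 bp described above. It was at 0.140 ± 0.0161 in siSFSWAP/siUPF1 and 0.495 ± 0.148 in siNT/siUPF1 cells (SD, n = 3). The FLNA intron was at 0.0519 ± 0.0112 in siSFSWAP/siUPF1 and 0.149 ± 0.0420 in siNT/siUPF1 cells.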

How the data were processed

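PolyA RNA-seq of the 12 libraries was processed by the authors, who trimmed reads with cutadapt 1.9.1, aligned them with STAR 2.7 to GRCh38.p8 (both per the submitters' processing notes) and counted splicing events with rMATS against a RefSeq annotation with predicted decoy exons. The deposited tables hold raw inclusion and skipping read counts, exon body reads included, where each cell lists the values of a group's 3 libraries and gives no replicate numbers. Body reads from RNA that retains an intron therefore count as inclusion. The group on each side follows from the study's definition of the difference as siNT minus siSFSWAP. The authors' p-values, FDR and differences were not used.

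Events needed a mean of 10 reads per library and 10 inclusion and 10 skipping reads. Quasi-binomial fits had a Pearson dispersion moderated across events with limma 3.58.1 and floored at 1 (prior 2.38 with UPF1 present and 2.67 with UPF1 depleted), in R 4.3.3, tested by F or, for the difference between backgrounds, by a Wald test, and adjusted over all events of a table. P-values rest mainly on a spread between cultures shared by all events, and little on that of the 3 cultures per group at 1 exon. The shared value carried 66.7 degrees of freedom with UPF1 present and 71.0 with UPF1 depleted. The fit was also run on data simulated with the same dispersion for every event. This cannot show how it performs where spread differs between exons. An exon not called may still have changed. Tables used Python 3.11.15 with pandas 2.3.3. Bases were read from hg38, on which the introns' ends were checked, and annotation and snoRNA genes from GENCODE 44.

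The exons, gene lists and tests were chosen with earlier results of these data known. Exons named are, with siSFSWAP against siNT and with UPF1 depleted, the 8 largest rises and 8 largest falls among changed exons with a mean of 50 reads and groups that do not overlap, 1 per gene, and the 3 of lowest adjusted p in each of 17 gene lists, not all of which are given with values. For UPF1 knockdown they are the 4 of lowest adjusted p, and for retention 6 introns per comparison. A few of the items these rules name are not reported here. Gene lists match symbols by pattern.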

Additional observations from a re-analysis of the deposited data

How the results depend on the processing

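No paired analysis was possible because the joined cells of the tables carry no replicate number. The edgeR alternative was not run, and junction reads alone were not used because the tables do not list them apart from body reads. Asking for at least 30 reads per library, dropping the minimum of inclusion or skipping reads, dropping the floor on the dispersion, a dispersion trend on depth and 1 event per exon or intron before adjustment kept every count of changed exons or introns within 1.5 times, except that the trend left 0 exons for siSFSWAP/siUPF1 against siSFSWAP in place of 2.

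Each event's own dispersion left 0 calls in every comparison. Limma with pseudocounts of 0.5 and 1 called 168 and 256 rises and 82 and 83 falls with siSFSWAP against siNT, 0 and 40 rises and 2 and 26 falls with UPF1 depleted, and 0 exons for siNT/siUPF1 against siNT, 0 for siSFSWAP/siUPF1 against siSFSWAP and 0 less retained introns in either comparison. With a difference of at least 0.2 the counts were 255 rises and 38 falls, 179 and 32 with UPF1 depleted, 9 for siNT/siUPF1 against siNT, 0 for siSFSWAP/siUPF1 against siSFSWAP, and 99 and 26 less retained introns. Groups that do not overlap left 0 exons for siSFSWAP/siUPF1 against siSFSWAP. Chosen after seeing the data, 1 count per set of overlapping exons gave 331 rises and 81 falls, and 204 and 63 with UPF1 depleted, and GENCODE exons alone gave 370 and 91, and 215 and 69. Introns under 250 bp on both sides would have left 3321 exons in place of 8550.

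Leaving out each library in turn gave 290 to 640 rises and 115 to 152 falls with siSFSWAP against siNT, and 175 to 488 rises and 76 to 126 falls with UPF1 depleted. It gave 22 to 88 changed exons for siNT/siUPF1 against siNT, 0 to 6 for siSFSWAP/siUPF1 against siSFSWAP and 0 to 3 for the difference between backgrounds. Less retained introns numbered 191 to 405 with UPF1 present and 32 to 127 with UPF1 depleted. Of 117 exons named by the rule, 28 lost their call in at least 1 such fit and 0 changed sign. The cause of these shifts was not tested.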
